A study of Mus musculus with 12 samples.

Results

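The comparison described here is between colonic stromal cells that were positive and negative for expression of an Rspo3-GFP transgene. It covers 6 of the 12 RNA-sequencing libraries of the series. The rule took the 3 libraries titled GFP-positive and the 3 titled GFP-negative from the colon. All are from mice of the C57Bl6 strain, 8 to 12 weeks old, and the labels give each as positive or negative for expression of the transgene. The study sorted stromal cells that lacked EPCAM, the surface protein of epithelial cells, and CD45, the surface protein of leukocytes. By the labels, the 2 groups differ in this expression alone and share no treatment. How the transgene was built is not given in the sources used here, and neither is whether the replicates of a group came from separate animals, so that p-values measure only the spread between these libraries. The other 6 libraries are the same sorts from the small intestine and serve only as the second tissue below. The CD31 sort of the study was not analysed here.

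R-spondins are secreted proteins that bind LGR receptors on stem cells of the gut crypt. There they keep the ligases RNF43 and ZNRF3 from removing Frizzled receptors, which makes the cells more sensitive to Wnt ligands. Gremlin 1 and other antagonists capture bone morphogenetic proteins (BMPs), which otherwise favour differentiation. Near the crypt base such signals come from stromal cells, among them CD81-positive fibroblasts called trophocytes and lymphatic vessels, whereas PDGFRA-high subepithelial cells called telocytes are known as a source of BMPs and non-canonical Wnts.

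Levels are given as CPM, the deposited Salmon estimates scaled for library depth with edgeR's TMM factors, in replicates 1, 2 and 3 of each group. Differences are log2, GFP-positive minus GFP-negative, with their SE (n = 3 per group). A gene was called where the edgeR quasi-likelihood test gave a Benjamini-Hochberg adjusted p under 0.05. Of 16757 tested genes, 775 were called higher (4.62%) and 681 lower (4.06%) in GFP-positive cells. All 3 GFP-positive libraries lay above all 3 GFP-negative ones for 17.8% of tested genes and below them for 17.8%. The median log2 difference of all tested genes was -0.03, against which the medians of gene lists below can be read. The number called higher was 454 without GFP-negative replicate 3, 474 without GFP-positive replicate 2, 475 without GFP-negative replicate 2 and 511 without GFP-positive replicate 1. The number called lower was 366 without GFP-positive replicate 2, 372 without GFP-positive replicate 1, 416 without GFP-negative replicate 2 and 434 without GFP-negative replicate 1. Of the 1456 calls 714 were kept in each of the 6 fits without 1 library. In bulk RNA, fewer cells of a type and less RNA per cell cannot be told apart.

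**Figure D1:**
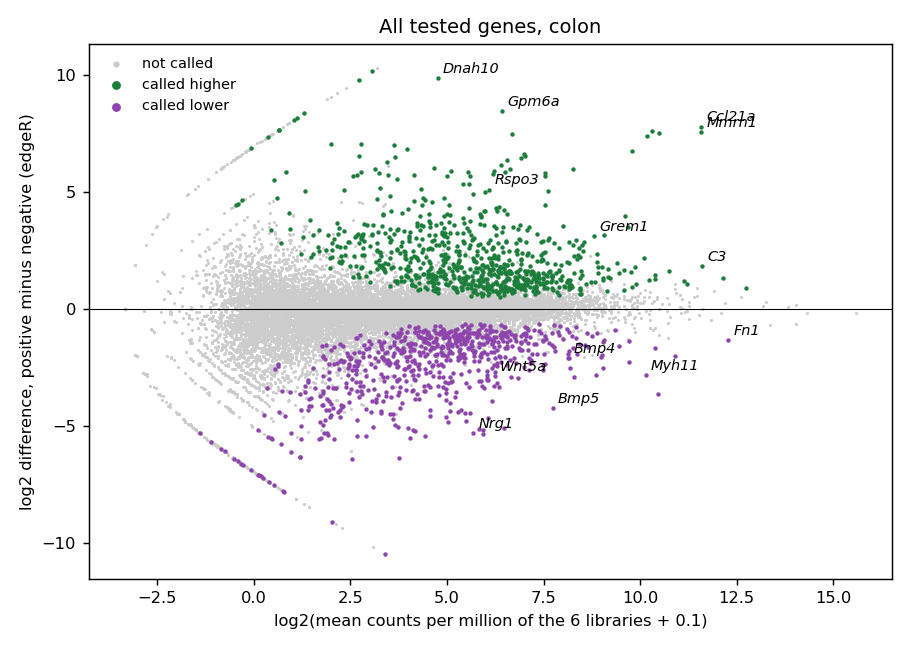
Each point is 1 of the tested genes, with the log2 of its mean level over the 6 colonic libraries (in CPM, with 0.1 added) on the horizontal axis and the log2 difference between GFP-positive and GFP-negative libraries on the vertical axis. Green points are the 775 genes called higher, purple points the 681 called lower and grey points the rest. Ccl21a and Mmrn1 are both far to the right and far above 0, whereas Bmp5 and Myh11 are abundant genes well below 0.

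Library totals were 6562662 to 8003415 counts for GFP-negative and 7735300 to 9120583 for GFP-positive cells. Protein-coding genes took 80.2 to 82.5% and 82.9 to 83.9% of them, and mitochondrial ribosomal RNA 6.26 to 9.04% and 5.83 to 7.10%. The first principal component of the 6 libraries held 54.1% of the variance and separated the sorts. Of 16 immediate early and stress genes, 12 cell cycle genes and 12 mitochondrial mRNAs, none was called by edgeR. In each group replicate 1 carried the most immediate early and stress RNA, with sums of 13840, 8198 and 8133 CPM among GFP-negative and 18010, 10990 and 11590 CPM among GFP-positive libraries. The part of this difference between replicates in other results was not tested.

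Rspo3, which encodes R-spondin 3 (ENSMUSG00000019880, chr10:29452416-29535867 in GRCm38, minus strand), checks the sort. It was measured at 2.49, 6.49 and 2.27 CPM among GFP-negative and 160.4, 116 and 119 CPM among GFP-positive libraries. The groups were far apart, and GFP-negative replicate 2 was the highest of its group. The log2 difference was 5.11 ± 0.45 (adjusted p = 6.42e-05), and since the cells were sorted on this reporter it is no finding of its own. On the deposited per-length scale, log2(TPM + 1), Rspo3 reached 3.06 ± 0.14 in GFP-positive cells, Rspo1 0.36 ± 0.19 and Rspo2 0.14 ± 0.06 (mean ± SD, n = 3). Rspo2, which encodes a second ligand of the same receptors, was at 0, 0.114 and 0.505 CPM among GFP-negative and 3.18, 1.32 and 2.51 CPM among GFP-positive libraries. It rose by a log2 of 3.39 ± 0.81 (adjusted p = 0.0205), with few counts, and the call was lost without GFP-negative replicates 1 or 2 or GFP-positive replicate 1 (adjusted p = 0.0656 to 0.097), so that 1 of the 3 R-spondin genes was higher in those fits and 2 in the others. Rspo1 was at 2.63, 2.50 and 3.03 and 4.38, 1.32 and 4.79 CPM, so that its groups overlapped (adjusted p = 0.77).

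Of the 4 tested genes for R-spondin receptors and their ligases none was called. The receptor gene Lgr4 lay at 52.2, 33.9 and 54.4 CPM among GFP-negative and 19.4, 31.1 and 39.2 CPM among GFP-positive libraries (adjusted p = 0.198). Lgr5, the marker of crypt stem cells, was near the detection limit in every library, at 1.17, 0.911 and 1.52 and 2.63, 0.790 and 1.37 CPM. By edgeR the ligase genes Rnf43 and Znrf3 differed by -1.39 ± 1.31 and 0.23 ± 0.53, with adjusted p of 0.65 and 0.882.

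**Figure D2:**
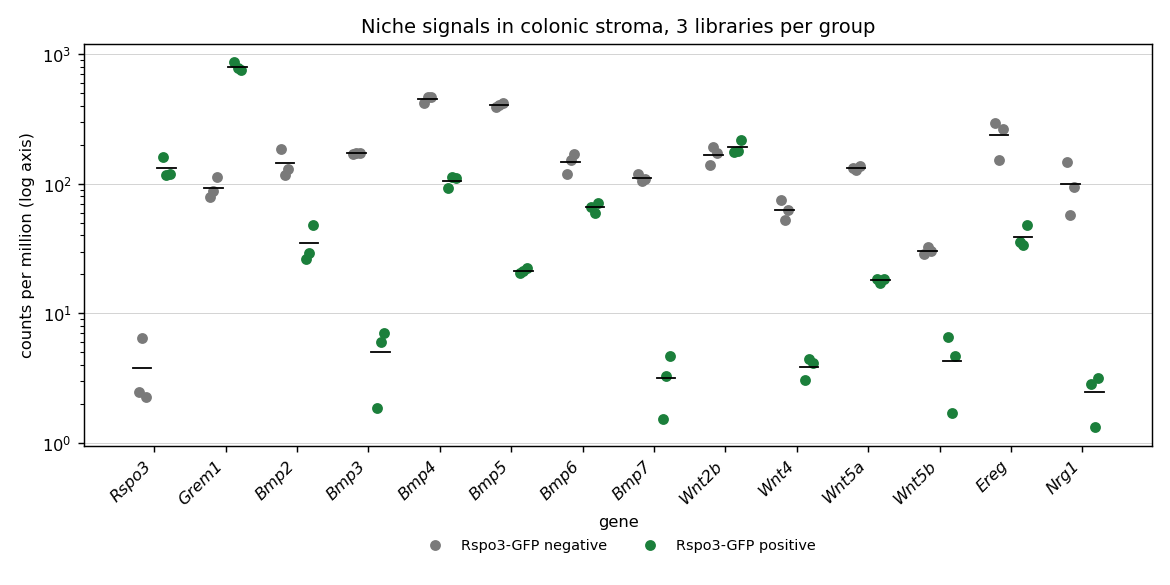
Levels of 14 genes for secreted signals, in CPM on a log axis. Each dot is 1 library (grey GFP-negative, green GFP-positive) and each bar the mean of 3. Rspo3 and Grem1 have all green dots above all grey ones, Wnt2b has overlapping groups, and the other 11 genes have all green dots below all grey ones.

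Grem1 was the BMP antagonist that rose furthest. It had 79.1, 87.8 and 113 CPM among GFP-negative and 869.7, 785 and 759.5 CPM among GFP-positive libraries, and no library of either group came near the other. The log2 difference was 3.11 ± 0.39 (adjusted p = 0.000489). Of 14 tested BMP antagonists 2 rose, 2 fell and 10 were not called, with a median of -0.45. The second that rose, Crim1, which encodes a membrane-bound BMP-binding protein, changed by 1.44 ± 0.40 (adjusted p = 0.042) and lost its call without any 1 of the 6 libraries (adjusted p up to 0.145). With 1 library left out, the count of antagonists that rose was thus 1 without any 1 of the 6 libraries. Those that fell were Twsg1, for the BMP-binding protein twisted gastrulation, and Sostdc1, which inhibits BMPs and Wnts. Twsg1 went from 287, 283 and 269 to 145, 142 and 129 CPM (-1.01 ± 0.20, adjusted p = 0.00577). Sostdc1 had 2.49, 2.28 and 2.27 CPM in GFP-negative libraries and 1 count in all GFP-positive ones, a ratio of 59.6 with an exact 95% counting interval of 10.3 to 2396 (adjusted p = 0.00274). Sostdc1 was not called by limma on log2(TPM + 1) (adjusted p = 0.246). Noggin (Nog), chordin (Chrd) and follistatin (Fst) were not called, at log2 differences of -2.54, 0.14 and -0.86. Among the others not called was Chrdl2, for a chordin-like protein (adjusted p = 0.157). DESeq2 and limma-voom called Chrdl2 lower (adjusted p = 0.0459 and 0.0333). The edgeR fit of the colonic libraries alone called Chrdl2 and Nog lower (adjusted p = 0.0123 and 0.0132), as did limma on log2(TPM + 1) (adjusted p = 0.0039 and 0.0241).

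Most tested BMP ligand genes went the other way from Grem1. Of 8 tested ligand genes 6 fell, 1 rose and 1 was not called, with a median of -2.09, and all 3 GFP-positive libraries lay below all 3 GFP-negative ones for the 6 that fell. Bmp5 was at 390.4, 403 and 422 CPM among GFP-negative and 20.6, 21.1 and 22.6 CPM among GFP-positive libraries. Its log2 difference was -4.24 ± 0.50 (adjusted p = 0.000463), and within each group the 3 values were close together. Bmp7 fell from 119, 106 and 109.8 to 1.53, 3.29 and 4.67 CPM (-5.13 ± 0.57, adjusted p = 0.000342). Bmp3, a ligand known to oppose other BMPs, fell from 169, 173 and 174 to 1.86, 6.06 and 7.07 CPM (-5.11 ± 0.62, adjusted p = 0.000591). For both genes the GFP-positive libraries kept a few CPM only, with replicate 1 the lowest. Bmp4, a classical crypt-opposing ligand, was at 421, 471 and 472 and 92.8, 112 and 112 CPM (-2.11 ± 0.28, adjusted p = 0.000598), and Bmp2 at 188, 118 and 131 and 26.4, 29.2 and 48.4 CPM (-2.07 ± 0.36, adjusted p = 0.00338). Both stayed well above the detection limit in GFP-positive cells. Bmp6 fell, with a log2 difference of -1.16 ± 0.29 (adjusted p = 0.0233), and the call was lost without GFP-negative replicates 2 or 3 or GFP-positive replicates 1, 2 or 3 (adjusted p = 0.0558 to 0.108). The ligand that rose was Gdf6, a growth and differentiation factor of the BMP family, at 3.95, 1.82 and 0.253 and 15.7, 10.8 and 9.80 CPM (2.61 ± 0.70, adjusted p = 0.0418), and the call was lost without GFP-negative replicates 2 or 3 or GFP-positive replicates 1, 2 or 3 (adjusted p = 0.0688 to 0.145). Gdf10 was not called, at 31.9, 54.1 and 20.2 and 24.1, 21.2 and 21.8 CPM (adjusted p = 0.633).

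Of 8 BMP receptor genes 2 fell and 6 were not called, and the count that fell was 0 without GFP-negative replicates 2 or 3 or GFP-positive replicates 1 or 2 as well as 1 without GFP-negative replicate 1. Bmpr1a, a type I receptor, went from 161, 175 and 198 to 84.04, 96.9 and 103 CPM (-0.91 ± 0.21, adjusted p = 0.0163), and the call was lost without GFP-negative replicates 2 or 3 or GFP-positive replicates 1 or 2 (adjusted p = 0.058 to 0.0928). Bmpr1b fell, with a log2 difference of -4.17 ± 1.15 (adjusted p = 0.0404) from a level of 6.58, 5.81 and 2.90 CPM, and the call was lost without GFP-negative replicates 1, 2 or 3 or GFP-positive replicates 1 or 2 (adjusted p = 0.0678 to 0.129). The type II receptor Bmpr2 was at 344, 338 and 260.3 and 352, 353 and 361 CPM (adjusted p = 0.805).

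Among 10 genes known to respond to BMP signals 4 fell and none rose, with a median of -0.49. Smad9, a signal transducer of the pathway that is also its target, had 22.1, 24.8 and 30.4 CPM among GFP-negative and 3.07, 3.42 and 4.44 CPM among GFP-positive libraries (-2.82 ± 0.27, adjusted p = 9.75e-05). Atoh8, a transcription factor, had 16.7, 15.5 and 21.1 and 1.53, 1.84 and 3.65 CPM (-2.91 ± 0.40, adjusted p = 0.000693). Smad6, an inhibitory Smad that feeds back on the pathway, had 28.2, 24.4 and 31.9 and 4.60, 6.45 and 6.84 CPM (-2.24 ± 0.34, adjusted p = 0.0013). In all 3 genes the groups lay apart by more than the spread within either. Smad6 was not called by limma on log2(TPM + 1) (adjusted p = 0.101). Smad7, the other inhibitory Smad, fell, with a log2 difference of -0.71 ± 0.20 (adjusted p = 0.0471), and the call was lost without GFP-negative replicates 1, 2 or 3 or GFP-positive replicates 1 or 2 (adjusted p = 0.0891 to 0.217). Limma on log2(TPM + 1) did not call Smad7 either (-0.108, adjusted p = 0.921). The Id genes, helix-loop-helix inhibitors induced by BMPs in many cells, were not called. Id1 differed by -0.54 ± 0.35, Id2 by 0.03 ± 0.29, and Id3 by -0.25 ± 0.26, with edgeR adjusted p of 0.454, 0.98 and 0.694.

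Sequences upstream of the genes at both ends of this axis are shown because their transcripts moved in opposite directions: Grem1, which rose, and the ligand Bmp5 and the targets Smad6, Smad9 and Atoh8, which fell. Each is the 250 bases before the RefSeq start in GRCm38.p6, 5′ to 3′ on the gene's strand, and capitals mark GGCGCC, a palindromic GC-rich word known from BMP-responsive enhancers. The word reads the same on both strands, and it occurs in 9.59% of 32851 RefSeq promoter windows of the same length. The window of Grem1 is chr2:113758649-113758898 on the minus strand. The window of Bmp5 is chr9:75775115-75775364 on the plus strand. The window of Smad6 is chr9:64022060-64022309 on the minus strand. The window of Smad9 is chr3:54755332-54755581 on the plus strand. The window of Atoh8 is chr6:72235578-72235827 on the minus strand.
Grem1: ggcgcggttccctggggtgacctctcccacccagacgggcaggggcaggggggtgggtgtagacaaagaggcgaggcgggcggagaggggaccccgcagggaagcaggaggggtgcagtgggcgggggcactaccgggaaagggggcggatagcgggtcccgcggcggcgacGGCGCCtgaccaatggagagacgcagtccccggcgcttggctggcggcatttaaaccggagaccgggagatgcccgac
Bmp5: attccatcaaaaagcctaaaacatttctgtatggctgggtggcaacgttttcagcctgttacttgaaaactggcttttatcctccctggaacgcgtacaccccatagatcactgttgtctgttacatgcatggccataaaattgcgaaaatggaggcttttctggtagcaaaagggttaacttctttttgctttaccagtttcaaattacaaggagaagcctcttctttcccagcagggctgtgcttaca
Smad6: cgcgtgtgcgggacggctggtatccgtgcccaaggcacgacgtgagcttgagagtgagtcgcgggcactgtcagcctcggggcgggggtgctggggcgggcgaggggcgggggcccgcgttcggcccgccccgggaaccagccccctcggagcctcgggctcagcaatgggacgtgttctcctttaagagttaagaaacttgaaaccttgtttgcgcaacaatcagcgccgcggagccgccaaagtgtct
Smad9: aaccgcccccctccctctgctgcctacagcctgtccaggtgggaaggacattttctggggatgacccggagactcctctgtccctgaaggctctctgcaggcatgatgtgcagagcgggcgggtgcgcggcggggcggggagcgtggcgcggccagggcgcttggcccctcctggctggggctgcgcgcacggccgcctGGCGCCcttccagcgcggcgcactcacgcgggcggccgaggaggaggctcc
Atoh8: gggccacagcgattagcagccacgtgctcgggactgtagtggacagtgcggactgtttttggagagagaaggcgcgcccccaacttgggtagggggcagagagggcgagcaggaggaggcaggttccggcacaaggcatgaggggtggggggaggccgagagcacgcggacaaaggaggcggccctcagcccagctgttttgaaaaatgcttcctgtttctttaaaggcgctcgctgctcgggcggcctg
The word is found once in the window of Grem1, 78 bases before its start, and once in that of Smad9, 51 bases before its start. The windows of Bmp5, Smad6 and Atoh8 hold none. A match describes these letters only. GC content was 72.0% for Grem1, 42.8% for Bmp5, 66.8% for Smad6, 73.2% for Smad9 and 63.2% for Atoh8.

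Of 10 tested Wnt ligand genes 3 fell by the edgeR test, none rose and 7 were not called, with a median of -0.41. Wnt5a, which signals mainly without β-catenin, was at 133, 128 and 136 CPM among GFP-negative and 18.3, 17.2 and 18.4 CPM among GFP-positive libraries (-2.88 ± 0.26, adjusted p = 6.42e-05). Wnt4 fell from 74.9, 52.4 and 62.6 to 3.07, 4.48 and 4.10 CPM (-4.03 ± 0.37, adjusted p = 6.42e-05), and Wnt5b from 28.7, 32.6 and 30.1 to 6.57, 1.71 and 4.67 CPM (-2.81 ± 0.51, adjusted p = 0.00392). Replicates of a group lay close together in Wnt5a, and the groups did not overlap in any of the 3. Wnt2b, a canonical ligand, had overlapping groups, at 139, 191 and 174 CPM and 176, 180.5 and 218 CPM (adjusted p = 0.863). On the deposited per-length scale it was the highest Wnt ligand of GFP-positive cells, with a log2(TPM + 1) of 3.17 ± 0.25, against 0.69 ± 0.15 for Wnt11 and 0.66 ± 0.16 for Wnt5a (mean ± SD, n = 3). Wnt9a and Wnt11 had all GFP-positive libraries above all GFP-negative ones without passing the test (1.35 ± 0.41 and 1.47 ± 0.51, adjusted p = 0.061 and 0.108). Wnt9a was called higher by DESeq2 (1.33, adjusted p = 0.0222) and with protein-coding genes alone in edgeR (adjusted p = 0.0449), and Wnt11 in the edgeR fit of the colonic libraries alone (adjusted p = 0.027). The other 4 ligand genes had at most 5.92 CPM in any colonic library and were not called; Wnt9b had the lowest adjusted p of them (0.263) and Wnt2 is described with the small intestine.

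Of 9 secreted Wnt antagonists 4 fell and none rose, with a median of -1.59. Besides Sostdc1, given above, these were Sfrp2, Dkk3 and Wif1. Sfrp2, a secreted Frizzled-related protein, lay at 15.3, 17.9 and 58.7 CPM in GFP-negative libraries, highest in replicate 3, and at 1.42, 0.395 and 0.798 CPM in GFP-positive ones (-5.09 ± 1.09, adjusted p = 0.0188), and the call was lost without GFP-negative replicate 3 or GFP-positive replicates 1, 2 or 3 (adjusted p = 0.0621 to 0.0937). Dkk3 went from 292, 347 and 295 to 97.6, 122 and 101 CPM (-1.55 ± 0.37, adjusted p = 0.019), and the call was lost without GFP-negative replicates 2 or 3 or GFP-positive replicates 1, 2 or 3 (adjusted p = 0.0518 to 0.0851). Wif1 had 9.21, 13.2 and 14.5 and 0, 0 and 0.798 CPM (adjusted p = 0.0307), and the call was lost without GFP-negative replicates 1, 2 or 3 or GFP-positive replicates 1 or 2 (adjusted p = 0.0615 to 0.113). With 1 library left out, the count of antagonists that fell was 1 without GFP-negative replicate 3 or GFP-positive replicate 1 as well as 2 without GFP-negative replicate 2 or GFP-positive replicates 2 or 3. Frzb, Sfrp5 and Sfrp1 also had all GFP-positive libraries below all GFP-negative ones but were not called (adjusted p = 0.0797, 0.238 and 0.513). Frzb was called lower by DESeq2 (adjusted p = 0.0229) and by limma on log2(TPM + 1) (adjusted p = 0.0471). In edgeR it was called without the low-count filter, with replicate number as a block and in the colonic libraries alone (adjusted p = 0.036, 0.0132 and 0.00469). Sfrp1 was called lower in the colonic libraries alone (adjusted p = 0.00975) and Sfrp5 without GFP-positive replicate 2 (adjusted p = 0.041). The other 2 antagonists overlapped between groups.

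Of 11 Frizzled and related receptor genes 2 rose and 1 fell. Fzd4, which also binds norrin in endothelium, rose from 53.4, 67.99 and 45.1 to 168, 178 and 150.2 CPM (1.58 ± 0.26, adjusted p = 0.0023). Fzd6 rose from 5.12, 2.85 and 1.77 to 42.5, 33.7 and 37.9 CPM (3.56 ± 0.70, adjusted p = 0.00787). The one that fell, Fzd2 (-1.37 ± 0.38, adjusted p = 0.043), had its call lost in each of the 6 fits without 1 library (adjusted p up to 0.145). Of 11 Wnt target genes 2 fell and 1 rose, with a median of -0.54, and the number that fell was 1 without GFP-positive replicates 1 or 2. Axin2, the most general of these targets, was at 22.8, 21.3 and 15.7 and 17.2, 14.1 and 9.91 CPM (adjusted p = 0.282). Tnfrsf19 fell from 16.96, 16.2 and 13.01 to 0.657, 1.58 and 0.798 CPM (-3.93 ± 0.52, adjusted p = 0.000591). Tcf7, a transcription factor of the pathway, fell, with a log2 difference of -3.11 ± 0.68 (adjusted p = 0.0117), and the call was lost without GFP-positive replicates 1 or 2 (adjusted p = 0.063 to 0.0652). Ccnd1, the cell cycle gene for cyclin D1, rose by 1.32 ± 0.32 (adjusted p = 0.0202), and the call was lost without GFP-negative replicates 1, 2 or 3 or GFP-positive replicates 1 or 2 (adjusted p = 0.0565 to 0.087).

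Of 8 EGF family ligands 3 fell and none rose, with a median of -1.62. Ereg, for epiregulin, was at 294, 153 and 266 CPM among GFP-negative and 35.4, 33.4 and 48.3 CPM among GFP-positive libraries (-2.60 ± 0.37, adjusted p = 0.00107). Nrg1, for neuregulin 1, fell from 147, 57.6 and 94.2 to 2.85, 1.32 and 3.19 CPM (-5.33 ± 0.96, adjusted p = 0.00653), and Nrg2 with a log2 difference of -4.10 ± 0.84 (adjusted p = 0.00842). GFP-negative replicate 2 was the lowest of its group for Ereg and Nrg1, and still above every GFP-positive library. Of 9 fibroblast growth factors 1 rose (Fgf18, 2.21 ± 0.61, adjusted p = 0.0412) and 1 fell (Fgf10, -1.60 ± 0.46, adjusted p = 0.0493), and both calls were lost in each of the 6 fits without 1 library. Of 10 hedgehog genes only Ptch1, the receptor and target of the pathway, was called. It went from 545, 381 and 473 to 177, 119 and 146 CPM (-1.66 ± 0.26, adjusted p = 0.00165), whereas Gli1 was at 60.8, 79.7 and 75.9 and 52.04, 38.2 and 52.6 CPM (adjusted p = 0.338).

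Of 22 other growth factor genes 6 fell and 2 rose, with a median of -0.87, and the count that rose was 1 without GFP-negative replicates 1 or 2 or GFP-positive replicates 2 or 3. Pdgfc fell from 18.3, 27.7 and 29.4 to 2.08, 2.90 and 2.39 CPM (-3.35 ± 0.32, adjusted p = 8.47e-05), and Hgf, for hepatocyte growth factor, from 82.04, 83.2 and 123 to 16.2, 15.3 and 15.4 CPM (-2.62 ± 0.31, adjusted p = 0.000383). Ntf3, for the neurotrophin NT-3, fell, with a log2 difference of -2.78 ± 0.40 (adjusted p = 0.00103). Kitl, the ligand of KIT, fell, with a log2 difference of -1.91 ± 0.37 (adjusted p = 0.00632), and Vegfa with a log2 difference of -1.64 ± 0.28 (adjusted p = 0.0027). Vegfd, a ligand of the lymphatic receptor encoded by Flt4, was at 7.90, 10.5 and 13.5 and 20.9, 32.6 and 37.9 CPM (1.52 ± 0.34, adjusted p = 0.0132), and its call was lost without GFP-negative replicates 1 or 2 or GFP-positive replicates 2 or 3 (adjusted p = 0.0522 to 0.0609).

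Lymphatic endothelial genes had the highest median of the cell type lists. All 15 tested lymphatic markers had the 3 GFP-positive libraries above the 3 GFP-negative ones, 13 were called higher and the median was 5.69. Summed over all listed genes in the table, untested ones included, the level was 819.5, 806 and 632 CPM among GFP-negative and 20800, 22840 and 19490 CPM among GFP-positive libraries. Lyve1, a hyaluronan receptor of lymphatic vessels, was at 20.3, 12.2 and 6.69 and 2721, 2633 and 2239 CPM (7.60 ± 0.87, adjusted p = 0.000474). Reln, for reelin, was at 22.1, 14.01 and 5.43 and 2164, 2520 and 2267 CPM (7.39 ± 0.65, adjusted p = 6.61e-05). Prox1, the transcription factor that defines lymphatic identity, was at 10.8, 6.26 and 4.17 and 384, 348 and 366 CPM (5.70 ± 0.75, adjusted p = 0.00103). In these genes GFP-negative replicate 1 was the highest and replicate 3 the lowest of its group, at a small share of any GFP-positive library. Flt4, the receptor VEGFR3, and Mmrn1, a protein of endothelial granules, rose by 6.76 ± 0.82 and 7.58 ± 0.92 (adjusted p = 0.000598 and 0.000591). The chemokine gene Ccl21a reached 5344, 7102 and 5730 CPM in GFP-positive libraries (7.81 ± 0.92, adjusted p = 0.000549); near-identical copies of this gene exist in the mouse, and how the estimate divided reads among them is uncertain. Pdpn, for podoplanin, which fibroblasts also express, was not called, at 149, 177 and 157 and 204, 234 and 219.9 CPM (adjusted p = 0.528). Stab2 was not called either (adjusted p = 0.122), with at most 0.34 CPM in GFP-negative and at least 2.96 CPM in GFP-positive libraries. DESeq2 and the edgeR fit of the colonic libraries alone called Stab2 higher (adjusted p = 0.0458 and 0.00766).

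Of 14 genes of endothelium in general 11 rose and none fell, with a median of 2.80. Ecscr rose from 15.5, 8.43 and 7.83 to 194, 176 and 162 CPM (4.07 ± 0.52, adjusted p = 0.000683), and Tek, the angiopoietin receptor, from 79.3, 50.5 and 41.8 to 333, 304 and 265 CPM (2.39 ± 0.38, adjusted p = 0.00189). Pecam1, the gene of CD31, was at 161, 76.1 and 45.9 and 675, 653 and 559 CPM (2.74 ± 0.57, adjusted p = 0.0108), and the call was lost without GFP-negative replicate 2 (adjusted p = 0.0547). GFP-negative libraries were spread widely here, with replicate 1 above replicate 3 for all 14 genes. With 1 library left out, the number that rose was 3 without GFP-negative replicate 2, 5 without GFP-negative replicate 3 or GFP-positive replicate 2 as well as 6 without GFP-positive replicate 1.

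Genes of blood endothelium moved in both directions. Of 15 tested, 6 fell, 3 rose and 6 were not called. Flt1, the receptor VEGFR1, fell from 221, 106 and 61.00 to 2.74, 6.58 and 5.81 CPM (-4.68 ± 0.71, adjusted p = 0.00221), and Aplnr, the apelin receptor, from 12.7, 5.24 and 2.27 to 0.110, 0 and 0.342 CPM (-5.31 ± 1.04, adjusted p = 0.00698). Aplnr was not called by limma-voom (adjusted p = 0.224) or by limma on log2(TPM + 1) (adjusted p = 0.257). Vwf, for von Willebrand factor, went from 71.4, 24.3 and 21.1 to 3.07, 3.42 and 3.65 CPM (-3.52 ± 0.78, adjusted p = 0.0176), and the call was lost without GFP-negative replicate 1 or GFP-positive replicates 1, 2 or 3 (adjusted p = 0.0509 to 0.0802). With 1 library left out, the number that fell was 3 without GFP-negative replicate 1 or GFP-positive replicates 1 or 2. The genes that rose were Gpihbp1, the lipase anchor of capillaries (5.87 ± 0.69), Aqp1, a water channel (5.04 ± 0.72), and Emcn, an endothelial sialomucin (3.48 ± 0.69), with adjusted p of 0.000507, 0.00151 and 0.00997. The call of Emcn was lost without GFP-negative replicate 2 (adjusted p = 0.0526). Plvap, a component of fenestral diaphragms, was not called, at 315, 104 and 61.00 and 31.4, 35.95 and 14.2 CPM (adjusted p = 0.0539).

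**Figure D3:**
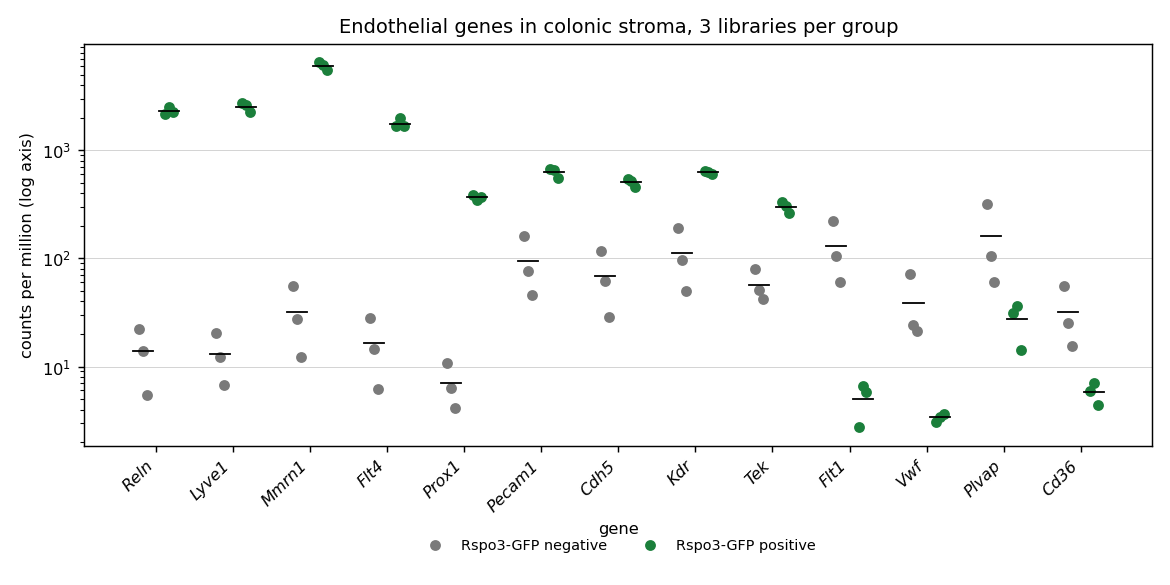
Levels of 13 endothelial genes in CPM on a log axis, with each dot 1 library (grey GFP-negative, green GFP-positive) and each bar the mean of 3. The first 9 genes, lymphatic and general, have all green dots above all grey ones, and the last 4, Flt1, Vwf, Plvap and Cd36, have all green dots below all grey ones.

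Of 12 trophocyte markers 6 rose, 1 fell and 5 were not called, with a median of 0.75. Apart from Rspo3 and Grem1 the risers were Ackr4, Il33, C3 and Cd81. Ackr4, a scavenging chemokine receptor, was at 23.98, 23.7 and 23.6 CPM among GFP-negative and 244, 268 and 227 CPM among GFP-positive libraries (3.37 ± 0.27, adjusted p = 4.56e-05). Cd81, which names this fibroblast type, rose from 61.1, 52.2 and 51.6 to 109, 145 and 121 CPM (1.19 ± 0.19, adjusted p = 0.00198). Il33, for an alarmin cytokine, rose from 17.4, 40.3 and 24.00 to 136, 129 and 112 CPM (2.20 ± 0.30, adjusted p = 0.000693). Cd34 was not called, at 249.9, 335 and 339 and 351, 396 and 402 CPM (adjusted p = 0.618). The one that fell, Has2, for a hyaluronan synthase (-1.52 ± 0.42, adjusted p = 0.0447), had its call lost in each of the 6 fits without 1 library (adjusted p up to 0.172). The list holds Rspo3, on which the cells were sorted, and Grem1, given above.

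Most general fibroblast genes were not called. Of 14 general fibroblast genes 2 fell and 12 were not called, with a median of -0.42. Col1a1, the main fibrillar collagen gene, was at 4778, 4847 and 4099 and 4027, 4801 and 3521 CPM (adjusted p = 0.896). Dcn, for decorin, was at 1584, 2290 and 2024 and 3429, 3860 and 3700 CPM (adjusted p = 0.152). DESeq2 and the edgeR fit of the colonic libraries alone called Dcn higher (adjusted p = 0.0443 and 0.00114). Pdgfra fell from 1246, 1199 and 1182 to 494, 466 and 438 CPM (-1.37 ± 0.32, adjusted p = 0.0166) and Pdgfrb with a log2 difference of -1.52 ± 0.35 (adjusted p = 0.0166). The call of Pdgfra was lost in each of the 6 fits without 1 library (adjusted p up to 0.0728), and that of Pdgfrb was lost without GFP-negative replicates 1 or 2 or GFP-positive replicates 1, 2 or 3 (adjusted p = 0.0501 to 0.0789). With 1 library left out, the number that fell was 0 without GFP-negative replicates 1 or 2 or GFP-positive replicates 1, 2 or 3 as well as 1 without GFP-negative replicate 3. Of 14 adventitial markers 2 rose and 2 fell, and those that fell numbered 1 without GFP-positive replicate 1. Thy1, the gene of CD90, rose from 35.5, 35.1 and 54.05 to 299, 318 and 298 CPM (2.87 ± 0.49, adjusted p = 0.00327), and Penk, for proenkephalin, by 2.09 ± 0.28 (adjusted p = 0.000591). Col15a1 fell from 843, 995 and 845 to 131, 168 and 166 CPM (-2.53 ± 0.30, adjusted p = 0.000386). Fn1, for fibronectin, fell, with a log2 difference of -1.35 ± 0.29 (adjusted p = 0.0103), and the call was lost without GFP-positive replicate 1 (adjusted p = 0.0614).

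Telocyte markers had the lowest median of the cell type lists. All 13 tested had the 3 GFP-positive libraries below the 3 GFP-negative ones, 11 fell and the median was -4.03. Summed over the 14 listed genes, including the untested one, the level was 2730, 2526 and 2564 CPM among GFP-negative and 651, 619 and 621 CPM among GFP-positive libraries, with Pdgfra the largest part in each library. The list shares Bmp3, Bmp5, Bmp7, Wnt4, Wnt5a, Wnt5b and Nrg1 with the signals above. Foxl1, the transcription factor that names these cells, was at 25.01, 19.5 and 21.3 and 0.110, 2.11 and 0.684 CPM (-4.52 ± 0.93, adjusted p = 0.0097). Sox6, another of their transcription factors, was at 109, 146 and 102 and 0.767, 3.16 and 5.92 CPM (-5.18 ± 0.73, adjusted p = 0.00152). GFP-positive libraries thus held traces of both, lowest in replicate 1.

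Of 13 smooth muscle genes 11 fell and none rose, with a median of -2.29. Myh11, the smooth muscle myosin heavy chain, went from 2188, 2116 and 1627 to 309, 269 and 257 CPM (-2.83 ± 0.32, adjusted p = 0.000254), and Acta2, smooth muscle actin, from 902, 821 and 710.3 to 143, 90.8 and 112 CPM (-2.81 ± 0.35, adjusted p = 0.000443). Of 9 pericyte genes 4 fell, among them Cspg4, the NG2 proteoglycan (-1.81 ± 0.33, adjusted p = 0.00395), and Notch3 (-3.63 ± 0.68, adjusted p = 0.00701), and the count was 2 without GFP-negative replicates 1 or 2 or GFP-positive replicates 1, 2 or 3. Notch3 was not called by limma-voom (adjusted p = 0.103) or by limma on log2(TPM + 1) (adjusted p = 0.139). Of 4 genes listed for interstitial cells of Cajal, the pacemakers of gut muscle, 3 fell and 1 rose. Those that fell were Kit (-3.50 ± 0.82), Ano1 (-1.91 ± 0.52) and Etv1 (-1.90 ± 0.50), with adjusted p of 0.0222, 0.0419 and 0.0347. The count that fell was 0 without GFP-negative replicates 1 or 2 or GFP-positive replicates 1 or 2. It was 1 without GFP-negative replicate 3 or GFP-positive replicate 3. The call of Kit was lost without GFP-negative replicates 1 or 2 or GFP-positive replicates 1, 2 or 3 (adjusted p = 0.0597 to 0.0948), that of Ano1 was lost without GFP-negative replicates 1, 2 or 3 or GFP-positive replicates 1 or 2 (adjusted p = 0.065 to 0.169), and that of Etv1 was lost in each of the 6 fits without 1 library (adjusted p up to 0.143). The gene of that list that rose, Prkcq, for a protein kinase C, went from 7.60, 7.17 and 4.17 to 89.95, 72.5 and 80.6 CPM (3.68 ± 0.40, adjusted p = 0.00021). Its call was kept in each of the 6 fits without 1 library.

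Of 13 glial genes 5 fell and 1 rose, with a median of -3.47. Gfap, the glial filament protein, went from 11.6, 6.26 and 6.44 to 0.219, 0.132 and 0.114 CPM (-5.56 ± 0.91, adjusted p = 0.00257), and the potassium channel gene Kcna1 with a log2 difference of -4.16 ± 0.75 (adjusted p = 0.00466). Neither Gfap nor Kcna1 was called by limma-voom (adjusted p = 0.153 and 0.104) or by limma on log2(TPM + 1) (adjusted p = 0.329 and 0.383). With 1 library left out, the count that fell was 2 without GFP-positive replicate 2 as well as 3 without GFP-negative replicate 1 or GFP-positive replicate 1. Entpd2, an ectonucleotidase, rose (0.96 ± 0.24, adjusted p = 0.0249), and the call was lost without GFP-negative replicates 1 or 3 or GFP-positive replicates 1, 2 or 3 (adjusted p = 0.0563 to 0.107). Of 9 neuronal genes Prph alone fell, from 45 counts over GFP-negative to 1 over GFP-positive libraries, a ratio of 48.8 with an exact 95% counting interval of 8.31 to 1968, and none rose. This call was lost without GFP-positive replicates 1 or 2 (adjusted p = 0.0549 to 0.0557). Gpm6a, a membrane glycoprotein listed here for mesothelium, was at 0.439, 0.797 and 0.126 CPM among GFP-negative and 186, 172 and 153 CPM among GFP-positive libraries (8.48 ± 0.76, adjusted p = 0.000121). Of the 9 genes listed for mesothelium 3 were tested. Besides Gpm6a these were Wt1 and Krt19, the latter also listed for epithelium, and neither was called (adjusted p = 0.517 and 0.556). Msln, Upk3b, Upk1b, Lrrn4, Muc16 and Bnc1 did not pass the filter on low counts.

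The sort was for cells without EPCAM and CD45, and genes of both excluded cell types were measured. Of 20 epithelial genes 1 fell and 19 were not called, with a median of -1.22. The one that fell, Phgr1 (-1.86 ± 0.50, adjusted p = 0.0474), had its call lost without GFP-negative replicates 1 or 3 or GFP-positive replicates 1 or 2 (adjusted p = 0.0644 to 0.198). The summed level of the 21 listed genes, including the untested Tff3, was 3672, 1520 and 3185 CPM among GFP-negative and 467, 894 and 2456 CPM among GFP-positive libraries. GFP-positive replicate 3 thus came within the range of GFP-negative libraries, and without it 3 epithelial genes fell. Epcam itself was at 174, 75.5 and 181 and 17.97, 50.7 and 169.7 CPM, and Krt8, a keratin, at 988, 418 and 871 and 144, 254 and 768 CPM. The part of this RNA in the results above was not tested. None of 9 leukocyte genes was called, and the sum of the 13 listed genes was at most 38.01 CPM in any colonic library. Ptprc, the gene of CD45, was at 1.90, 4.90 and 8.21 and 2.52, 3.16 and 6.84 CPM (adjusted p = 0.97). Of 5 B and plasma cell genes none was called, although the sum of the 7 listed genes was 460.5, 802 and 1427 CPM among GFP-negative and 148, 209.8 and 329 CPM among GFP-positive libraries, most of it from Igkc (348, 622 and 1110 and 117, 163 and 252 CPM).

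**Figure D4:**
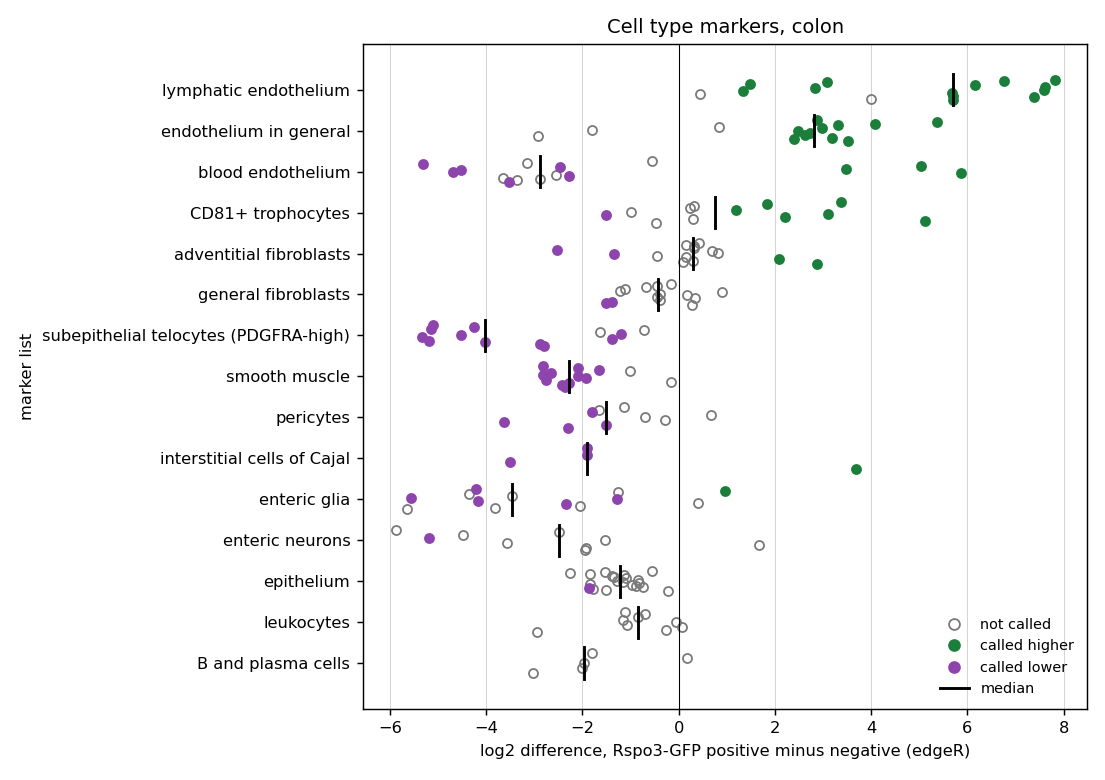
Each point is 1 tested gene of a marker list (vertical axis), placed by its log2 difference between GFP-positive and GFP-negative libraries. Filled points were called and the black bar is the list's median, which lies at 5.69 for lymphatic endothelium, -4.03 for telocytes and -2.29 for smooth muscle.

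Immune mediators of the stroma changed in both directions. Of 21 chemokine genes and scavenging receptors 6 rose and 5 fell. Of the atypical receptors, which bind chemokines without classical signalling, Ackr2, Ackr3 and Ackr4 rose, and Ackr1, listed with blood endothelium, was not called, at 10.7, 4.90 and 4.93 and 4.60, 6.19 and 3.19 CPM (adjusted p = 0.735). Ackr2 was at 4.24, 0.911 and 2.53 and 254, 278 and 229 CPM (6.66 ± 0.71, adjusted p = 0.000383), and Ackr3, which binds CXCL12, at 90.4, 137 and 114 and 279, 382 and 273 CPM (1.45 ± 0.25, adjusted p = 0.00277). Cxcl12 itself fell from 864, 855 and 759.7 to 201, 228 and 206 CPM (-1.96 ± 0.32, adjusted p = 0.00198). Cxcl13, the B cell chemokine, fell from 34.2, 25.1 and 34.5 to 3.83, 4.61 and 3.19 CPM (-3.01 ± 0.44, adjusted p = 0.00124), and Cxcl14 and Cxcl9 with log2 differences of -3.41 ± 0.47 and -2.80 ± 0.42 (adjusted p = 0.000869 and 0.00146). Cxcl1, which attracts neutrophils, rose from 160.0, 168 and 199 to 359, 332 and 501 CPM (1.18 ± 0.23, adjusted p = 0.00653).

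Of 14 cytokine genes 4 rose and 2 fell, and those that fell numbered 1 without any 1 of the 6 libraries. Il7, the lymphocyte survival factor, rose from 8.92, 3.64 and 4.80 to 56.4, 53.6 and 56.1 CPM (3.26 ± 0.46, adjusted p = 0.000839), and Il6 by 1.42 ± 0.30 (adjusted p = 0.00999). Tnfsf13b, for the B cell factor BAFF, fell from 82.3, 112 and 124 to 7.23, 11.5 and 18.8 CPM (-3.09 ± 0.47, adjusted p = 0.0016). Of 14 complement genes 3 rose and none fell. C3, the central component, was at 1139, 1441 and 1467 and 4746, 4888 and 4795 CPM (1.83 ± 0.26, adjusted p = 0.000983), and C7 at 45.9, 52.6 and 51.9 and 268, 210.0 and 254 CPM (2.28 ± 0.21, adjusted p = 6.42e-05). C4b and C1s1, by contrast, lay lower in all GFP-positive libraries without a call (adjusted p = 0.184 and 0.2). Of 14 interferon response genes 5 rose and none fell; Ifi44 rose from 8.04, 3.87 and 5.56 to 56.3, 43.7 and 35.4 CPM (2.96 ± 0.50, adjusted p = 0.0028) and Gbp3 by 1.16 ± 0.21 (adjusted p = 0.00406), and the count was 2 without GFP-negative replicates 2 or 3 or GFP-positive replicate 1 as well as 3 without GFP-positive replicate 2. None of 15 antigen presentation genes was called.

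More genes of retinoid and prostaglandin metabolism fell than rose. Of 10 retinoid genes 5 fell and 2 rose. The enzymes of retinoic acid synthesis Rdh10, Aldh1a1 and Aldh1a3 fell, with log2 differences of -2.63 ± 0.34, -1.75 ± 0.31 and -2.10 ± 0.36 (adjusted p = 0.000534, 0.00359 and 0.00268), and Rbp4, the retinol carrier, from 42.5, 46.9 and 38.1 to 5.48, 2.50 and 4.67 CPM (-3.32 ± 0.38, adjusted p = 0.000324). Rarb, a retinoic acid receptor and target, rose from 8.19, 6.38 and 5.56 to 43.1, 29.2 and 18.5 CPM (2.17 ± 0.44, adjusted p = 0.00867). Of 16 prostaglandin genes 7 fell and 1 rose, where the number that fell was 3 without GFP-positive replicate 1 as well as 4 without GFP-negative replicate 2 or GFP-positive replicates 2 or 3, and the number that rose was 0 without GFP-negative replicates 2 or 3 or GFP-positive replicates 1 or 3. Pla2g4a, the phospholipase that releases arachidonic acid, fell from 132, 108 and 127 to 20.9, 16.9 and 25.98 CPM (-2.52 ± 0.26, adjusted p = 0.000164). Ptgs1, for cyclooxygenase 1, and Ptges, a prostaglandin E synthase, fell, with log2 differences of -1.77 ± 0.29 and -1.57 ± 0.26 (adjusted p = 0.00237 and 0.00256). Ptgs2, for the inducible cyclooxygenase, was not called, at 306, 139.6 and 339 and 134, 121 and 186 CPM (adjusted p = 0.285).

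In the matrix, related collagen chains moved in opposite directions. Of 32 collagen genes 9 fell and 5 rose. Col4a3, a basement membrane chain, rose from 4.53, 4.10 and 3.66 to 22.2, 17.6 and 16.9 CPM (2.20 ± 0.33, adjusted p = 0.00138), and Col4a4 rose by a log2 of 2.26 ± 0.41 (adjusted p = 0.004). Neither Col4a3 nor Col4a4 was called by limma on log2(TPM + 1) (adjusted p = 0.111 and 0.131). Col4a5 and Col4a6 fell, with log2 differences of -1.91 ± 0.33 and -3.02 ± 0.38 (adjusted p = 0.00286 and 0.000463). Col4a6 went from 123, 129 and 101 to 12.1, 10.9 and 20.4 CPM. Col6a5 and Col6a4, chains of the microfibrillar collagen VI, fell, with log2 differences of -3.76 ± 0.47 and -4.45 ± 0.68 (adjusted p = 0.000549 and 0.00222). Col14a1, which binds fibril surfaces, rose from 549, 836 and 739.5 to 1828, 2075 and 1992 CPM (1.47 ± 0.27, adjusted p = 0.0043), whereas Col12a1, its near relative, fell from 1400, 1530 and 1244 to 298, 297 and 268 CPM (-2.27 ± 0.37, adjusted p = 0.00222). Of 11 laminin genes 3 fell and 1 rose. Lama1 and Lama5, chains of epithelial basement membranes, fell, with log2 differences of -3.55 ± 0.39 and -3.28 ± 0.45 (adjusted p = 0.000233 and 0.000852), and Lamb2 rose by 1.23 ± 0.25 (adjusted p = 0.00687). Limma on log2(TPM + 1) did not call Lamb2 (adjusted p = 0.125). Of 25 proteoglycan and elastic fibre genes 5 fell and 1 rose, and those that fell numbered 2 without GFP-positive replicate 2 as well as 3 without GFP-positive replicates 1 or 3, those that rose 0 without GFP-negative replicates 1, 2 or 3 or GFP-positive replicates 1 or 2. Of 20 proteases and inhibitors 3 rose and 3 fell, and those that fell numbered 1 without GFP-negative replicates 1 or 2 or GFP-positive replicates 1, 2 or 3. Timp3, an inhibitor of matrix proteases, was at 821, 772 and 965 and 2557, 2751 and 2481 CPM (1.61 ± 0.37, adjusted p = 0.0164), and the call was lost without GFP-negative replicates 1 or 2 or GFP-positive replicate 2 (adjusted p = 0.0597 to 0.075).

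Transcription factors of the gut mesenchyme changed in both directions. Of 31 tested, 12 fell and 5 rose. Tbx2, a T-box factor, fell from 78.2, 86.7 and 86.8 to 2.85, 4.74 and 3.99 CPM (-4.44 ± 0.37, adjusted p = 4.56e-05), and its relative Tbx3 from 76.9, 71.5 and 86.6 to 4.38, 2.11 and 5.01 CPM (-4.34 ± 0.39, adjusted p = 6.42e-05). Foxf2, a hedgehog target of gut fibroblasts, fell from 70.05, 87.9 and 84.1 to 7.78, 10.5 and 8.89 CPM (-3.15 ± 0.45, adjusted p = 0.00108). Nr2f2, which specifies veins and lymphatics, rose from 48.7, 44.2 and 38.9 to 364, 388 and 324 CPM (3.03 ± 0.32, adjusted p = 0.000164). Of 20 anterior Hox genes 6 rose and none fell, with a median of 1.16, while of 11 posterior Hox genes Hoxa13 alone fell, with a median of -1.44. Hoxd8 rose from 11.6, 10.02 and 6.69 to 36.4, 44.1 and 31.8 CPM (1.99 ± 0.31, adjusted p = 0.00151). Hoxa13, a hindgut identity gene, went from 27.2, 28.7 and 30.9 to 3.73, 3.16 and 6.72 CPM (-2.67 ± 0.44, adjusted p = 0.00327). The number of anterior Hox genes that rose was 3 without GFP-negative replicate 3 or GFP-positive replicate 1.

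Guidance and Notch genes were called in both directions. Of 32 axon guidance genes 10 rose and 8 fell. Sema3d, a secreted semaphorin, was at 19.4, 16.2 and 13.3 and 390.4, 352 and 325 CPM (4.45 ± 0.33, adjusted p = 3.74e-05). Robo1, a Slit receptor, fell from 158, 164 and 149.8 to 29.04, 28.1 and 32.9 CPM (-2.39 ± 0.25, adjusted p = 0.000159). The semaphorin coreceptors divided, with Nrp2 higher (1.34 ± 0.30, adjusted p = 0.0142) and Nrp1 lower (-1.50 ± 0.25, adjusted p = 0.00257). The call of Nrp2 was lost without GFP-negative replicates 1 or 3 or GFP-positive replicates 1 or 2 (adjusted p = 0.0536 to 0.0712). The number of guidance genes that rose was 6 without GFP-negative replicate 3 or GFP-positive replicates 1 or 2, and the number that fell was 5 without GFP-negative replicate 2 or GFP-positive replicates 1, 2 or 3. Of 12 Notch genes 3 rose and 1 fell. Notch1 rose from 103, 74.1 and 65.8 to 537, 583 and 479 CPM (2.72 ± 0.41, adjusted p = 0.00139), Hey1, a Notch target, by 2.57 ± 0.56 (adjusted p = 0.0141) and the ligand gene Dll4 by 2.65 ± 0.66 (adjusted p = 0.0322), and the number that rose was 1 without GFP-negative replicates 2 or 3. The call of Hey1 was lost without GFP-negative replicates 2 or 3 (adjusted p = 0.0639 to 0.0675), and that of Dll4 was lost without GFP-negative replicates 2 or 3 or GFP-positive replicates 1, 2 or 3 (adjusted p = 0.0637 to 0.117).

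Genes outside these lists were among the largest changes. Among called genes of at least 16 CPM in the higher group whose libraries did not overlap, Dnah10, an axonemal dynein heavy chain (ENSMUSG00000038011, chr5:124725085-124834308 in GRCm38, plus strand), had the largest log2 rise. It had 1 count over the GFP-negative libraries and 50.1, 55.8 and 55.6 CPM in the GFP-positive ones, a ratio of 1264 with an exact 95% counting interval of 226 to 49950. Lcn2, for the iron-siderophore binding protein lipocalin 2, rose from 4.53, 0.797 and 1.64 to 217, 196 and 144 CPM (6.36 ± 0.74, adjusted p = 0.000559). Dtx1, a Notch pathway ligase, rose from 3.95, 1.37 and 3.03 to 259, 274 and 231 CPM (6.53 ± 0.68, adjusted p = 0.000307), and Stab1, a scavenger receptor of sinusoidal and lymphatic vessels, by 5.996 ± 0.64 (adjusted p = 0.000318). The sodium channel subunit gene Scn3b rose by 6.03 ± 0.79 (adjusted p = 0.000762). Cyp4b1, Clca2, Alox12e, Ube2ql1, Adgrg3 and Pkhd1l1 were also among the 20 largest rises. So were the listed genes Gpm6a, Ccl21a, Lyve1, Mmrn1, Reln, Flt4 and Ackr2, and Klhl4, which is in the lymphatic list. Those named here other than Dnah10 rose by a log2 of 5.996 to 8.48. Alox12e and Ube2ql1 were not called by limma-voom (adjusted p = 0.194 and 0.0811).

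At the other end, Nxf7, a member of the RNA export factor family on the X chromosome (ENSMUSG00000031410, chrX:135579555-135598777 in GRCm38, minus strand), had 22.4, 15.8 and 25.01 CPM in GFP-negative libraries and no count in any GFP-positive one. It was at least 179-fold lower, with the limit set at 3 counts over the group (adjusted p = 0.00424). Slc6a11, a GABA transporter, fell from 31.6, 26.4 and 21.9 to 0.767, 0 and 0.114 CPM (-6.38 ± 0.96, adjusted p = 0.00147). Syt13, a synaptotagmin, fell from 117, 115 and 128 to 1.75, 2.11 and 4.79 CPM (-5.37 ± 0.75, adjusted p = 0.00146), and Cpxm2, a carboxypeptidase-like protein, with a log2 difference of -4.81 ± 0.39 (adjusted p = 4.56e-05). Glp2r, the receptor of the intestinotrophic hormone GLP-2, was at 51.04, 34.9 and 39.8 and 0, 2.11 and 0.798 CPM (-5.46 ± 1.26, adjusted p = 0.0218), and the call was lost without GFP-negative replicates 1, 2 or 3 or GFP-positive replicates 1 or 3 (adjusted p = 0.0561 to 0.0862). Sall1, a zinc finger factor, fell, with a log2 difference of -4.85 ± 0.91 (adjusted p = 0.00689), and Cybrd1, a ferric reductase, with a log2 difference of -4.63 ± 0.42 (adjusted p = 6.42e-05).

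The same sort of the small intestine, in 6 other libraries, called 710 genes higher (4.24%) and 1111 lower (6.63%). Of the 775 genes higher in the colon 287 were also higher there (37.0% of the colonic and 40.4% of the small intestinal genes), and of the 681 lower ones 258 were also lower (37.9% and 23.2%). Opposite calls were made for 11 genes that were higher in the colon and lower in the small intestine and for 14 of the reverse. The effects of the sort differed between tissues for 345 genes (2.06%) by the interaction term. That number was 67 without colonic GFP-negative replicate 2, 75 without GFP-negative replicate 3, 123 without GFP-positive replicate 2 and 156 without GFP-positive replicate 3. Same-numbered small intestinal libraries of both sorts deviated together, and with the replicate block 852 genes were called higher and 1079 lower in that tissue. Values below are without the block, which is named where it changed a call or a count by more than 1.5 times. Small intestinal libraries differed in quality: mitochondrial ribosomal RNA took 9.73 to 12.7% of counts in the GFP-negative and 5.35 to 7.92% in the GFP-positive ones, and the part of this in the differences was not tested.

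Rspo3 rose by 4.40 ± 0.42 and Grem1 by 4.35 ± 0.42 in the small intestine (adjusted p of the difference 0.65 and 0.28). Of the 15 lymphatic markers 11 rose in the small intestine and none had a called difference between tissues; 1 had one with the block and 2 without colonic GFP-negative replicate 1. Of 13 telocyte markers 1 fell in the small intestine (2 with the block), and for 6 the effect was more negative in the colon by the interaction term. That number was 3 with the block, 3 without colonic GFP-negative replicate 1, 2 without GFP-negative replicate 3 or GFP-positive replicate 2 and 1, Wnt5a, without GFP-negative replicate 2. The effect was also more negative in the colon for 5 of the 8 BMP ligands, none of which fell in the small intestine, and for 2 of them with the block. Bmp7 was at 10.8, 32.9 and 26.4 CPM in small intestinal GFP-negative and 6.55, 7.47 and 18.96 CPM in its GFP-positive libraries, so that the groups overlapped (-1.10 ± 0.48, adjusted p = 0.192), and the difference of effects, colon minus small intestine, was -4.04 ± 0.71 (adjusted p = 0.0196). It was -4.75 ± 0.79 for Bmp3, -2.89 ± 0.64 for Bmp5, -2.27 ± 0.50 for Bmp2 and -1.69 ± 0.38 for Bmp4 (adjusted p = 0.018, 0.0432, 0.0413 and 0.0425). With the block the calls of Bmp5, Bmp2 and Bmp4 were lost (adjusted p = 0.0825, 0.0746 and 0.066). The call of this difference was lost for Bmp4 and Bmp5 in each of the 6 fits without 1 colonic library, for Bmp2 in all but the fit without GFP-positive replicate 3, for Bmp3 without GFP-negative replicate 2, and for Bmp7 without GFP-negative replicates 2 or 3 or GFP-positive replicate 2. In small intestinal GFP-negative libraries Bmp5 was at 50.2, 124 and 63.01 CPM, below every colonic GFP-negative library. Wnt5a, at 29.6, 41.7 and 30.6 and 37.00, 24.4 and 53.4 CPM in the small intestine, differed by -3.05 ± 0.35 (adjusted p = 0.00247) and Smad9 by -2.53 ± 0.37 (adjusted p = 0.00632). Wnt2 was at 0.839, 0.937 and 0.641 and 33.7, 80.2 and 11.5 CPM in the small intestine (5.65 ± 0.65, adjusted p = 0.000357), against 5.12, 5.92 and 4.17 and 1.64, 2.37 and 2.85 CPM in the colon, a difference of -6.80 ± 0.84 (adjusted p = 0.00311). The differences of Wnt5a, Smad9 and Wnt2 kept their call without each colonic library.

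Other cell type lists moved with the sort in the small intestine as well. Of 20 epithelial genes 15 fell there and 1 in the colon, and the effects differed for 6. That number was 4 with the block, 10 without colonic GFP-positive replicate 1, 4 without GFP-positive replicate 3, 3 without GFP-positive replicate 2, 1 without GFP-negative replicate 2 and 0 without GFP-negative replicate 3. For Krt8 the difference was 5.34 ± 0.96 (adjusted p = 0.023), lost without colonic GFP-negative replicates 2 or 3. The part of epithelial RNA in other differences between tissues was not tested. Of 14 genes of endothelium in general none rose and 2 fell in the small intestine, and 1 had a called difference, Tek (2.61 ± 0.52, adjusted p = 0.0262), kept only without GFP-negative replicate 1 among the fits that leave out a library. With the block 2 of the 14 rose in the small intestine and 4 differed, among them Pecam1 (adjusted p = 0.0217). Without colonic GFP-negative replicate 1, 1 rose there and 2 differed. Of 15 genes of blood endothelium 10 fell and 2 rose in the small intestine, with no called difference between tissues. With the block 3 rose there and 1 differed, Plvap (adjusted p = 0.0437). Of 13 smooth muscle genes 10 fell there, and none differed between tissues by the test; with the block 1 rose there and for 2 the effect was more negative in the colon. Of 14 general fibroblast genes 8 rose in the small intestine, and for 5 the effect was more negative in the colon, a number that was 1 without colonic GFP-negative replicate 1 and 0 without any other colonic library. Pdgfra differed by -1.98 ± 0.45 (adjusted p = 0.0425), a call also lost with the block (adjusted p = 0.0924).

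**Figure D5:**
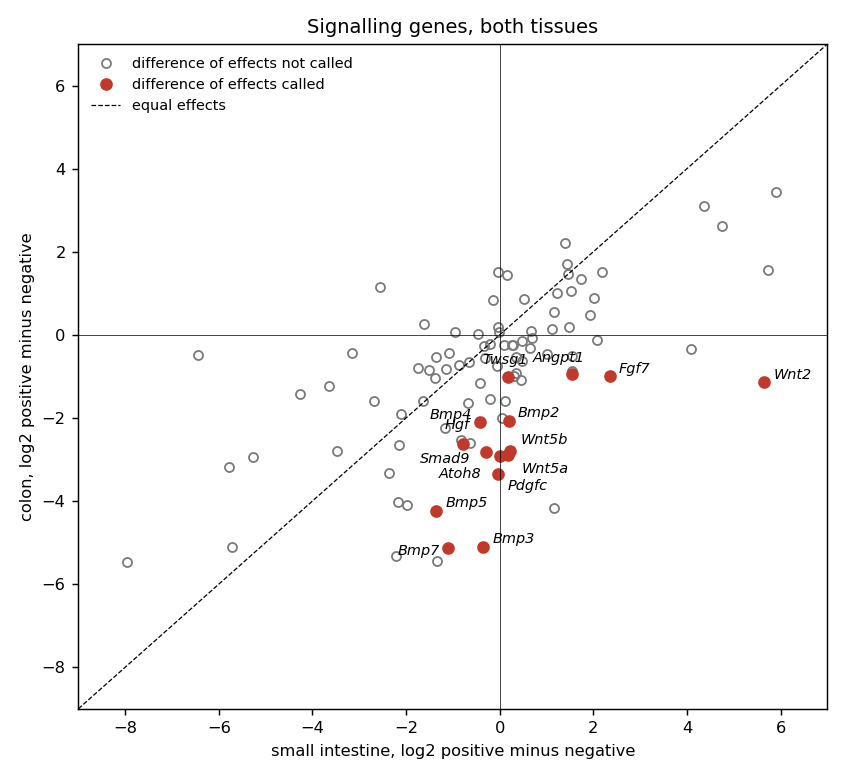
Each point is 1 of 97 signalling genes (Wnt, BMP, EGF, FGF and other growth factor lists), with its log2 difference between sorts in the small intestine on the horizontal axis and in the colon on the vertical axis. Red points are the 15 genes whose effects differed by the interaction term, and all 15 lie below the dashed line of equal effects. With the block 10 genes differed, and without 1 colonic library 5 to 11.

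Some genes moved in opposite directions in the 2 tissues. Cxcl13 fell in the colon and rose in the small intestine from 12.2, 31.2 and 27.7 to 158, 62.6 and 184 CPM (2.51 ± 0.41, adjusted p = 0.00234), a difference of -5.52 ± 0.60 (adjusted p = 0.0023). Osr1, a transcription factor of connective tissue, fell in the colon from 66.5, 97.9 and 129.6 to 25.6, 26.99 and 28.4 CPM and rose in the small intestine from 11.3, 17.8 and 10.6 to 59.1, 41.7 and 97.05 CPM (difference -4.17 ± 0.47, adjusted p = 0.0023). Rasgrf2, an exchange factor for RAS and RAC, rose in the colon from 8.19, 4.55 and 3.28 to 17.1, 24.4 and 14.7 CPM and fell in the small intestine from 54.1, 22.1 and 16.4 to 0.995, 0.884 and 1.18 CPM (difference 6.72 ± 0.69, adjusted p = 0.0023). Its call in the colon was lost without GFP-negative replicates 2 or 3 or GFP-positive replicates 1 or 2 (adjusted p = 0.0562 to 0.109). Clca3a1, of the chloride channel accessory family, rose in the colon from 9.80, 4.44 and 4.55 to 68.8, 51.8 and 43.1 CPM and fell in the small intestine from 113, 41.9 and 28.1 to 6.14, 9.34 and 1.53 CPM (difference 6.55 ± 0.94, adjusted p = 0.0095), with its colonic call lost without GFP-negative replicates 2 or 3 (adjusted p = 0.0643 to 0.0676). St8sia6, a sialyltransferase, rose in the colon from 6.14, 3.76 and 3.79 to 93.7, 90.5 and 86.5 CPM and was not called in the small intestine, at 45.7, 20.6 and 57.1 and 26.4, 37.4 and 10.01 CPM (difference 5.04 ± 0.66, adjusted p = 0.00453). Cybrd1 fell in the colon, and in the small intestine its groups overlapped at 19.7, 49.3 and 16.99 and 19.1, 16.7 and 28.03 CPM (difference -4.20 ± 0.53, adjusted p = 0.00335). The differences of the 6 genes of this paragraph kept their call without each colonic library.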

How the data were processed

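Stromal cells of the colon and small intestine were sequenced as total RNA libraries (RNeasy extraction, ribosomal depletion with ZapR), per the labels' protocols. The authors deposited estimated counts per gene, made with Salmon 1.1.0 on mm10 per the submitters' processing notes, and a second table of log2 values, which the values show to be log2(TPM + 1). Counts were whole numbers as deposited. With R 4.3.3, edgeR 4.0.16 fitted all 12 libraries with a mean per group after TMM scaling and filterByExpr (minimum count 10), leaving 16757 of 32052 genes, and Benjamini-Hochberg adjustment was over all of them. DESeq2 1.42.0 and limma 3.58.1 were alternatives, as were RLE factors, other filters, the colon alone, the replicate block and leaving out each colonic library. The fit was also run on counts simulated from its own dispersions as independent libraries. That run cannot test whether its assumptions hold for these libraries, paired ones among them. Deviations of same-numbered libraries of both sorts correlated by 0.323, 0.179 and 0.166 over genes in the small intestine, taken as pairing there, and by 0.009, 0.047 and 0.09 in the colon, which was not. Per the file headers, both sorts of colonic replicates 2 and 3 and of small intestinal replicate 3 each carry a shared identifier, the same one for replicate 3 of either tissue, whose meaning is not given. The replicate block was fitted within each tissue. Members and gene lists were chosen with earlier results of these data known, and lists received no set test. Named genes were all tested members of the R-spondin, Wnt and BMP ligand and antagonist lists, up to 6 called and 3 uncalled members of other lists, the 20 largest changes in each direction with at least 16 CPM and the 10 largest differences between tissues, of which some are not reported here. Ackr3, Col12a1, Col14a1, Col4a4, Col4a5, Cxcl1, Cxcl12, Epcam, Foxl1, Gli1, Has2, Lgr5, Nrp2, Prox1, Vegfd and Vwf fall outside this rule and were chosen after their values were seen. Counting intervals are exact and cover counting error only. Coordinates are from GENCODE M21 and promoter sequences from RefSeq.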

Additional observations from a re-analysis of the deposited data

Results flagged for a closer look

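For 44 named genes the effect of the sort differed between the colon and the small intestine by the edgeR interaction term, at an adjusted p under 0.05. Each value is a log2 difference of effects, colon minus small intestine, with 3 libraries in each of the 4 groups. The effect was more negative in the colon, with a call kept in each of the 6 fits without 1 colonic library, with values of -2.87 for Col4a5, -5.52 for Cxcl13, -4.20 for Cybrd1, -4.42 for Lin7a, -4.17 for Osr1, -3.32 for Pdgfc, -4.45 for Rerg, -2.71 for Robo1, -2.53 for Smad9, -6.80 for Wnt2 and -3.05 for Wnt5a (adjusted p = 0.0023 to 0.0109). It was more negative with a call kept in 1 to 5 of those fits for values of -2.92 for Atoh8, -2.27 for Bmp2, -4.75 for Bmp3, -4.04 for Bmp7, -2.22 for Col15a1, -3.03 for Col4a6, -1.65 for Pla2g4a, -1.81 for Ptges, -3.05 for Rbp4, -4.42 for Samd5, -2.82 for Tnfsf13b and -3.02 for Wnt5b (adjusted p = 0.0153 to 0.0474). It was more negative with a call kept in no such fit for values of -1.69 for Bmp4, -2.89 for Bmp5, -1.85 for C1s1, -2.08 for Cpxm2, -2.06 for Cxcl12, -1.83 for Hgf, -1.98 for Pdgfra and -1.19 for Twsg1 (adjusted p = 0.0319 to 0.0462). 

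The effect was more positive in the colon, with a call kept in each of the 6 fits without 1 colonic library, with values of 6.55 for Clca3a1, 6.72 for Rasgrf2 and 5.04 for St8sia6 (adjusted p = 0.0023 to 0.0095). It was more positive with a call kept in 1 to 5 of those fits for values of 6.69 for Krt19, 5.34 for Krt8, 7.51 for Phgr1, 4.72 for Pkhd1l1, 2.61 for Tek and 5.06 for Wipf3 (adjusted p = 0.022 to 0.0481). It was more positive with a call kept in no such fit for values of 4.10 for Fzd6, 1.29 for Gbp3, 2.43 for Notch1 and 1.99 for Nr2f2 (adjusted p = 0.0314 to 0.0481). Krt8, Krt19 and Phgr1 are epithelial genes, a list of which the small intestine had 15 of 20 lower and the colon 1, and the part of epithelial RNA in the other differences was not tested. With the replicate block the call was lost for Bmp2, Bmp4, Bmp5, C1s1, Cpxm2, Cxcl12, Fzd6, Hgf, Pdgfra, Phgr1, Samd5, Twsg1 and Wnt5b (adjusted p = 0.066 to 0.109). A call was gained with the block for other named genes. The effect was more positive in the colon for Ccnd1, Ecscr, Klhl4, Notch3, Pecam1, Plvap and Ptprc, and more negative for Tnfrsf19 (adjusted p = 0.007799 to 0.04655).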

How the results depend on the processing

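Of 8 other settings for the 2 counts of colonic calls, the fit on the 6 colonic libraries alone called 1567 genes higher and 1433 lower, and DESeq2 called 1068 lower. The difference between tissues was called for 1088 genes by DESeq2, 179 by limma-voom and 160 by limma on the deposited log2(TPM + 1), against 345 by edgeR. Leaving out 1 colonic library gave 454 to 590 genes higher, 366 to 571 lower and 67 to 231 for the difference. The cause was not tested, beyond there being fewer samples. Size factors by RLE, no filter on low counts and protein-coding genes alone kept each count within 1.5 times. Rspo3 kept its call in every setting run. Among named genes, 17 lost their colonic call by limma-voom and 30 by limma on log2(TPM + 1). Lost by both were Aplnr, Cd36, Gfap, Kcna1, Kcna2, Kit, Notch3, Prph, Rarb, Rasgrf2, Rspo2, Tcf7 and Vwf. Lost by limma-voom but not by the other were Alox12e, Fgf18, Palmd and Ube2ql1. The reverse held for Bmpr1a, Col4a3, Col4a4, Crim1, Cxcl1, Entpd2, Etv1, Gdf6, Hey1, Il6, Lamb2, Smad6, Smad7, Sostdc1, Timp3, Vegfa and Vegfd. Without the low-count filter 18 named genes lost their colonic call, and with the block 11. The replicate block called 880 genes higher and 655 lower, 1264 of them shared with the 1456, and 330 for the difference. Not every colonic library correlated best with its own number, and whether same-numbered libraries share an animal is not given. The block split the differences between tissues into 223 more positive and 107 more negative in the colon, against 195 and 150. Directions turned for 7 named genes without a call. On log2(TPM + 1) the difference was -0.07 for Bmpr2, -0.078 for Id2, -0.038 for Rspo1 and -0.0 for Lgr5. Without 1 library it ranged from -1.466 to 0.384 for Fst, -0.107 to 0.201 for Id2, -0.401 to 0.011 for Id3, -0.129 to 0.732 for Lgr5 and -0.826 to 0.294 for Ptprc. Wnt9a was called with the block (adjusted p = 0.0291). DESeq2 called 6 named genes that the main fit did not: Chrdl2, Dcn, Frzb, Plvap, Stab2 and Wnt9a. The fit on the colonic libraries alone added 11: C1s1, C4b, Chrdl2, Dcn, Frzb, Gli1, Nog, Pdpn, Sfrp1, Stab2 and Wnt11.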

Other observations

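Among the large falls, several belonged to no list. Bean1, a binding partner of the ligase NEDD4, was at 34.4, 34.2 and 28.04 CPM among GFP-negative and 0.986, 0 and 1.03 CPM among GFP-positive libraries (-5.52 ± 0.92, edgeR adjusted p = 0.00287). Samd5, a sterile alpha motif protein, went from 38.3, 37.01 and 25.9 to 0.219, 1.05 and 1.48 CPM (-5.19 ± 0.67, adjusted p = 0.000592), and Palmd, for palmdelphin, from 29.2, 29.7 and 17.6 to 0, 1.32 and 1.03 CPM (-5.04 ± 0.87, adjusted p = 0.00424). In all 3 the groups were far apart. Kcna2, a potassium channel gene, and Papln, for the matrix protein papilin, fell with log2 differences of -4.96 ± 0.95 and -4.73 ± 0.65 (adjusted p = 0.00867 and 0.000717), and Col24a1, a minor fibrillar collagen, with -5.22 ± 0.98 (adjusted p = 0.00663). By limma-voom Kcna2 and Palmd were not called (adjusted p = 0.159 and 0.0682), and by limma on log2(TPM + 1) Kcna2 was not (adjusted p = 0.424).

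Rerg, a RAS-related growth inhibitor, fell in the colon from 66.4, 77.5 and 80.6 to 4.49, 1.58 and 4.44 CPM (-4.40 ± 0.52, edgeR adjusted p = 0.000397) and lay at 8.03, 21.2 and 8.02 and 7.05, 15.6 and 16.4 CPM in the small intestine. Lin7a, a scaffold of cell junctions, fell in the colon from 19.01, 20.3 and 16.5 to 0.438, 1.32 and 0.912 CPM (-4.38 ± 0.50, adjusted p = 0.000291) and lay at 6.47, 7.29 and 6.41 and 9.12, 3.05 and 8.60 CPM in the small intestine. Wipf3, an actin regulator, rose in the colon from 5.12, 1.37 and 1.01 to 138, 179 and 123 CPM (5.91 ± 0.90, adjusted p = 0.00259), against 32.97, 17.8 and 4.97 and 32.3, 57.4 and 11.5 CPM in the small intestine. Each of the 3 was called in the colon without each library.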
